A study of Callithrix jacchus with 6 samples.

Results

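Interferon-stimulated genes were followed across the glial, vascular and neuronal cells of the aged common marmoset (Callithrix jacchus) hippocampus. The set named 8 genes, IFIT1, IFI6, HERC5, STAT2, PARP9, PARP14, MX1 and ADAR, out of 29320 annotated genes. Rows were taken by gene symbol, which gave 6 of the 8. STAT2 carries no symbol in the deposited table and was found by its identifier (ENSCJAG00000011101) in a gene name table, so 7 genes were measured, and MX1 was not analysed here. The other identifiers were ENSCJAG00000005746 (IFIT1), ENSCJAG00000009319 (IFI6), ENSCJAG00000006474 (HERC5), ENSCJAG00000008000 (PARP9), ENSCJAG00000007930 (PARP14) and ENSCJAG00000009410 (ADAR).

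Type I interferons bind a receptor on the cell surface, and STAT2 with IRF9 then helps carry the signal to the nucleus and switch on a large set of target genes. IFIT1 binds viral RNA, IFI6 restricts virus replication, and HERC5 attaches the ubiquitin-like protein ISG15 to other proteins. PARP9 and PARP14 belong to the ADP-ribosyltransferase family, and PARP9 works with the ubiquitin ligase DTX3L. ADAR edits adenosine to inosine in double-stranded RNA and so keeps cellular RNA from setting off interferon responses. In the brain, endothelial cells, microglia and astrocytes are known to respond to interferon.

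The 6 libraries came from hippocampi of animals labelled with sevoflurane, an inhaled anaesthetic, or with oxygen, with 3 libraries in each group. Every title gives 6 h and does not say whether this is the length of exposure. The tissue was digested with collagenase, the cell suspension was frozen and thawed, and cells were profiled by droplet sequencing of transcript 3' ends with unique molecular identifiers (UMIs). The labels do not say that replicates are separate animals, so p-values measure the spread between these libraries, which may be technical. Whole libraries held 7103 to 8577 cell barcodes and 41164947 to 47886816 UMIs, and 44344 cells remained after likely doublets were removed. Any pair of libraries shared 0.33% of barcodes or fewer.

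Clusters were named from marker genes, which gave 11 classes, and 2190 cells (4.94%) stayed unnamed. Endothelial-like, microglia-like, astrocyte-like, oligodendrocyte precursor-like (OPC-like), oligodendrocyte-like and GABAergic neuron-like classes were compared between groups in all 6 libraries, as was glutamatergic cluster 10, led by HS3ST4 and DPP10. The library sevoflurane 3 stood apart in its neurons, with 1 cell or none in clusters 7 and 8 and 6 cells in cluster 19. Clusters 7 (CPNE4 and SHISA6), 8 (TRHR and LAMA3) and 19 (PIEZO2 and PRSS12) were therefore compared over the other 5 libraries. Clusters 17 and 20 likewise had fewer than 20 cells only in sevoflurane 3, at 13 and 0 cells. They were smaller, with 1438 and 150 cells in all, and were not compared. Sevoflurane 3 also held 1136 of the 1428 cells of cluster 22, 1139 of the 1269 of cluster 23 and 384 of the 661 of cluster 12. These clusters count in the glutamatergic neuron-like levels and shares. Oligodendrocyte-like cluster 24 came mostly from the same library, with 1012 of its 1129 cells. The endothelial-like class held only 53 cells in sevoflurane 2.

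Levels are counts per 1000000 (CPM), the UMIs of a gene over all UMIs of the class in a library. They are read here between cell types for 1 gene at a time, since a 3' count was not scaled for capture between genes. Libraries with fewer than 20 cells of a class were left out of the levels across classes.

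PARP14 and PARP9 were high in vascular cells and microglia and low in neurons. PARP14 averaged 418 ± 175 CPM in endothelial-like cells (SD, n = 6 libraries), 258 ± 37.1 CPM in microglia-like cells (n = 6), 218 ± 61.7 CPM in fibroblast-like cells (n = 5), 137 CPM (range 125 to 152 CPM) in OPC-like cells (n = 6) and 97.3 ± 11.0 CPM in astrocyte-like cells (n = 6). It averaged 59.9 ± 8.71 CPM in oligodendrocyte-like cells, 21.1 ± 3.78 CPM in GABAergic neuron-like cells and 19.5 ± 2.16 CPM in glutamatergic neuron-like cells (n = 6 each). The ranges of endothelial-like, microglia-like, mural-like and fibroblast-like cells overlapped in that order, the OPC-like range lay above the astrocyte-like one, and every oligodendrocyte-like library lay above every neuronal one.

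PARP9 followed the same order at the top, with 120 ± 48.4 CPM in endothelial-like and 73.4 ± 19.9 CPM in microglia-like cells (SD, n = 6 each). Astrocyte-like cells had 37.1 ± 7.11 CPM and OPC-like cells 32.6 ± 3.47 CPM, which overlapped. A gap with no overlap then separated OPC-like cells from oligodendrocyte-like cells at 6.83 ± 2.46 CPM, and a further gap separated these from GABAergic neuron-like cells at 0.97 ± 0.52 CPM. The neuronal classes had 1.53 CPM or less in every library.

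IFIT1 was highest in endothelial-like cells at 38.0 ± 12.5 CPM (SD, n = 6 libraries). Oligodendrocyte-like cells at 10.7 ± 3.08 CPM, astrocyte-like cells at 8.93 ± 4.93 CPM and OPC-like cells at 5.38 ± 2.64 CPM overlapped in range. Microglia-like cells held 3.02 ± 2.16 CPM, with 12 UMIs in all, and the neuronal classes about 1 CPM. IFI6 also peaked in endothelial-like cells, at 21.1 ± 7.12 CPM, and the ranges of neighbouring classes overlapped at every step down to 2.36 ± 0.95 CPM in glutamatergic neuron-like cells.

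HERC5 was spread more evenly. Endothelial-like, OPC-like and astrocyte-like cells averaged 23.5 ± 11.7, 22.2 ± 5.86 and 21.9 ± 4.66 CPM (SD, n = 6 each), which did not differ beyond their spread, against 4.45 ± 1.59 CPM in glutamatergic neuron-like cells. ADAR was found in every class, from 83.1 ± 18.4 CPM in endothelial-like cells to 27.6 ± 3.15 CPM in oligodendrocyte-like cells, and GABAergic neuron-like cells at 44.7 ± 4.77 CPM overlapped astrocyte-like cells at 46.2 ± 4.54 CPM. Every endothelial-like library lay above every oligodendrocyte-like one for ADAR. STAT2 averaged 22.7 ± 7.86 CPM in microglia-like cells and 8.88 ± 4.91 CPM in OPC-like cells (n = 6 each). It ranged from 0 to 15.9 CPM over the 4 mural-like libraries, on 2 UMIs in all. All neighbouring classes in that order overlapped.

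**Figure D1:**
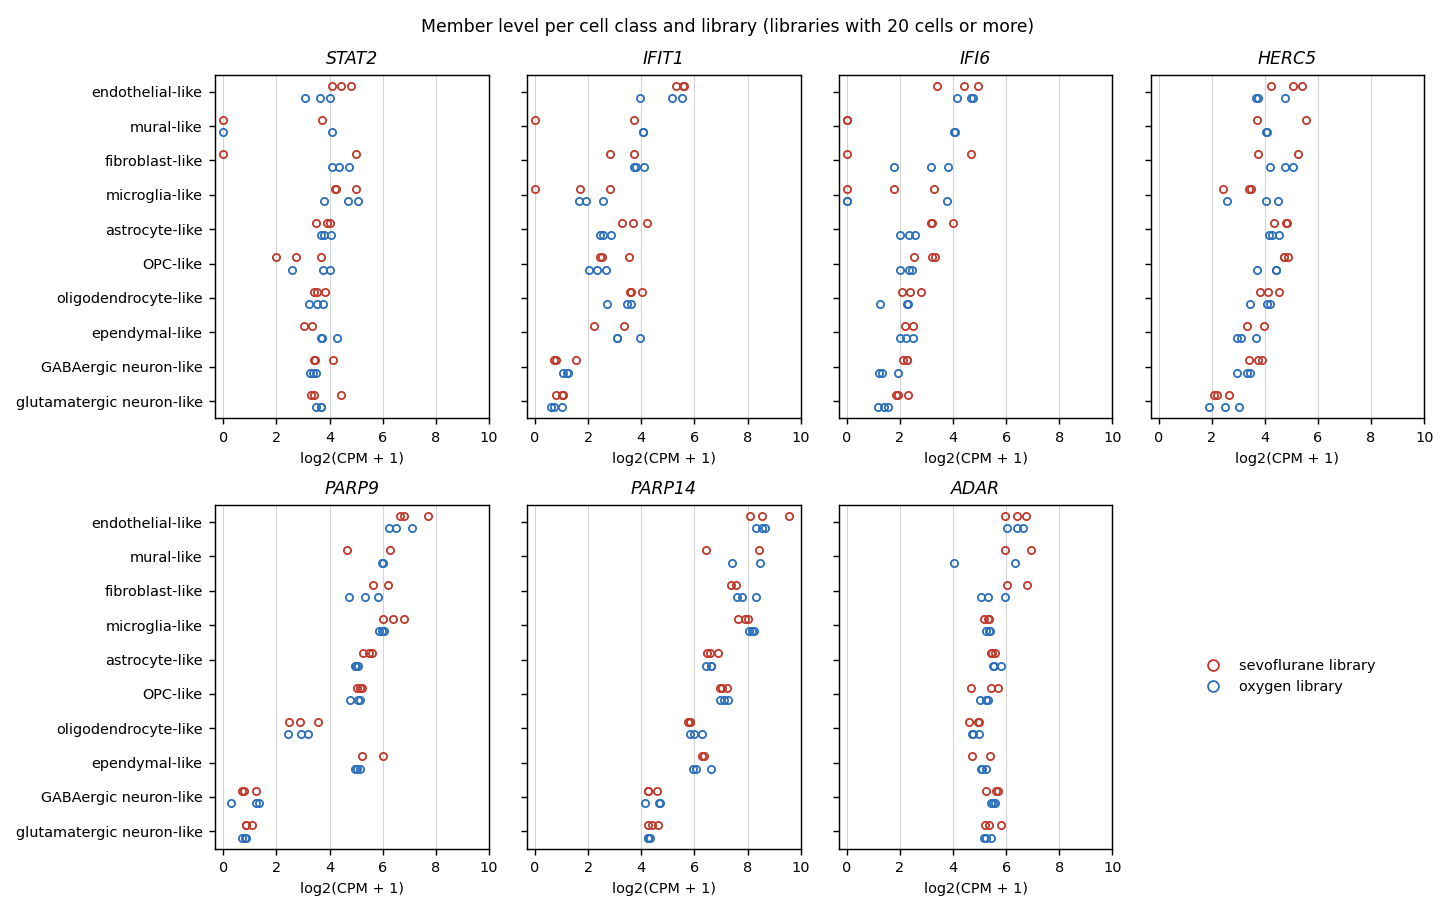
Level of the 7 measured genes as log2(CPM + 1) in 10 cell classes, 1 open circle per library with 20 cells or more, sevoflurane libraries in red above oxygen libraries in blue. PARP14 averages 418 CPM in endothelial-like cells and 19.5 CPM in glutamatergic neuron-like cells, and PARP9 120 CPM in endothelial-like cells and 0.97 CPM in GABAergic neuron-like cells.

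At a depth of 1000 UMIs per cell, most cells held transcripts of at most 1 of the 7 genes. Unthinned, PARP14 alone was found in 60.6% of endothelial-like cells in sevoflurane and 53.1% in oxygen libraries. Genes found together were not counted at that full depth. With each cell thinned to 1000 UMIs, 2 or more of the 7 genes were found together in 15.6% of endothelial-like cells in sevoflurane libraries (range 8.22% to 26.9%) and 8.57% in oxygen libraries (range 6.99% to 10.3%). Microglia-like cells gave 3.21% in sevoflurane and 4.77% in oxygen libraries, and astrocyte-like cells 2.19% in sevoflurane and 1.31% in oxygen libraries (n = 3 each). The ranges of the groups overlapped in endothelial-like, microglia-like and astrocyte-like cells. Neuronal classes stayed below 0.33% in every library. Intervals on shares of cells cover counting error only.

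**Figure D2:**
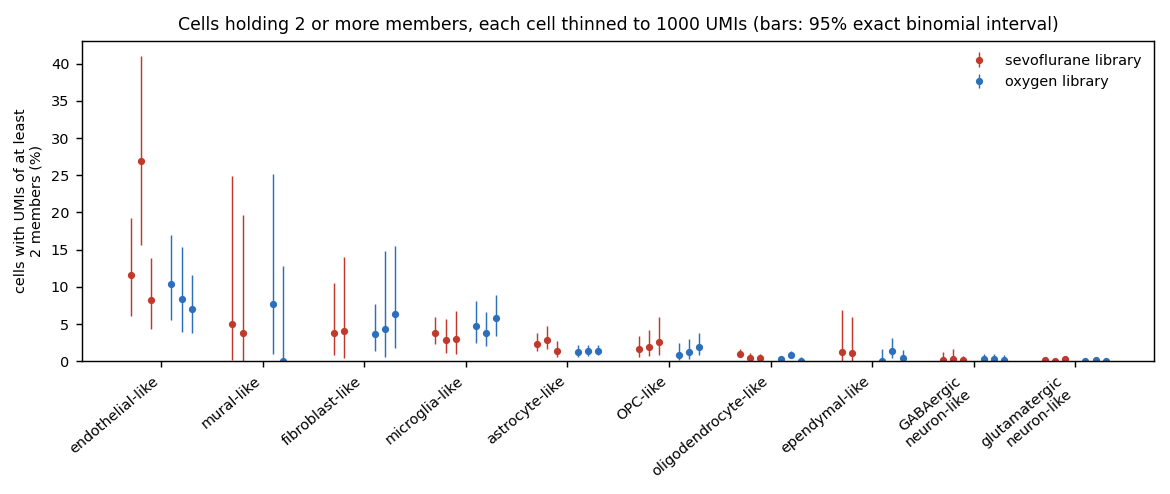
Percentage of cells with UMIs of at least 2 of the 7 genes after thinning each cell to 1000 UMIs, by class, 1 point per library with 20 cells or more of the class and its 95% exact (Clopper-Pearson) binomial interval, sevoflurane left of oxygen. Among the points shown, endothelial-like cells of sevoflurane 2, with 53 cells in the class, have the highest share at 26.9%.

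The genes whose levels ran most like the mean of the 7 across 42 class-by-library sums (6 classes and cluster 10, 6 libraries each, 8950 genes compared) were DTX3L, with a Pearson r of 0.959, STK3 (0.948), AFF1 (0.919), PXN (0.915) and ILK (0.913). The points share libraries and classes, so r is a description. DTX3L, the ligase partner of PARP9, averaged 65.4 CPM in endothelial-like cells, 16.0 CPM in microglia-like cells and 0.05 CPM in cluster 10. In the RefSeq calJac240_pri gene table DTX3L lies directly beside PARP9. Of the 7 genes themselves, PARP9 (r = 0.926) and PARP14 (0.921) ran closest to the mean they are part of, and STAT2 (0.213) least.

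Between sevoflurane and oxygen, no member passed an adjusted p of 0.05 in any class or cluster. The edgeR quasi-likelihood test covered 51 combinations of member and cell type that had enough counts. Of these, 0 passed after Benjamini-Hochberg adjustment over all genes, with adjusted p of 0.307 or more, 6 had an unadjusted p under 0.05, and 31 had a fold change above 0. The share of all tested genes above 0 was 49.6% in astrocyte-like, 51.5% in oligodendrocyte-like, 50.8% in OPC-like, 53.8% in microglia-like and 53.6% in endothelial-like cells. For the rest, the median log2 fold change of all tested genes was 0.0040 in GABAergic neuron-like cells. It was 0.011, 0.013, 0.015 and 0.0063 in clusters 10, 7, 8 and 19. Of all tested genes, an unadjusted p under 0.05 was reached by 6.73% in astrocyte-like, 7.69% in oligodendrocyte-like, 6.14% in OPC-like, 6.64% in microglia-like, 4.46% in endothelial-like and 11.5% in GABAergic neuron-like cells, and by 13%, 12%, 13% and 12% in clusters 10, 7, 8 and 19. DESeq2 gave an adjusted p for 38 of the 51 and also passed 0. Few other genes passed either. The share of all tested genes that passed was 0.018% in astrocyte-like, 0.0171% in oligodendrocyte-like, 0.0329% in OPC-like, 0.0913% in microglia-like, 0% in endothelial-like and 0.122% in GABAergic neuron-like cells. In the glutamatergic clusters it was 0.778% (cluster 10), 0.00758% (cluster 7), 0.461% (cluster 8) and 0.0544% (cluster 19). No member lay lower without overlap in astrocyte-like, OPC-like, endothelial-like or GABAergic neuron-like cells or in clusters 10, 8 and 19, where 6.54%, 5.05%, 7.07%, 5.22%, 6.57%, 9.93% and 11.6% of genes did.

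In astrocyte-like cells, IFIT1, IFI6 and PARP9 lay higher in all sevoflurane libraries than in any oxygen library. These were 3 of 7 members tested, beside 6.15% of all genes tested in that class that lay higher without overlap. The median log2 fold change of the 7 was 0.38, beside -0.0031 for all 11113 genes.

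IFIT1 had 17.3, 11.7 and 8.79 CPM in sevoflurane 1, 2 and 3, against 4.48, 4.97 and 6.23 CPM in oxygen 1, 2 and 3. Sevoflurane 1 was the highest library and oxygen 1 the lowest. The means were 12.6 ± 4.34 and 5.23 ± 0.90 CPM (SD, n = 3 each), a log2 fold change of 1.25 ± 0.34 (SE) with an edgeR adjusted p of 0.505.

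IFI6 had 15.2, 8.07 and 8.20 CPM in sevoflurane 1, 2 and 3, against 2.99, 4.97 and 4.07 CPM in oxygen 1, 2 and 3. Sevoflurane 1 again stood highest, and the lowest sevoflurane library lay above the highest oxygen library. Its log2 fold change was 1.37 ± 0.38 (edgeR adjusted p = 0.505).

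PARP9 had 47.7, 43.3 and 37.5 CPM in sevoflurane 1, 2 and 3, against 32.4, 31.2 and 30.4 CPM in oxygen 1, 2 and 3. The oxygen libraries lay close together and below all sevoflurane libraries. The log2 fold change was 0.45 ± 0.17 (edgeR adjusted p = 0.665).

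Without sevoflurane 1 the log2 fold changes in astrocyte-like cells were 0.93 for IFIT1, 0.99 for IFI6 and 0.36 for PARP9, with edgeR adjusted p of 0.642, 0.664 and 0.772. The counts behind them were small: IFIT1 rested on 109 UMIs and IFI6 on 88 UMIs over 4897 cells. HERC5, STAT2, PARP14 and ADAR overlapped between groups in this class, with log2 fold changes of 0.38 ± 0.23, -0.02 ± 0.26, 0.09 ± 0.15 and -0.14 ± 0.16.

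The share of astrocyte-like cells with an IFIT1 UMI, thinned to 1000 UMIs, was 1.48 ± 0.74% in sevoflurane and 0.41 ± 0.05% in oxygen libraries (SD, n = 3 each). That with an IFI6 UMI was 1.34 ± 0.56% in sevoflurane and 0.37 ± 0.14% in oxygen libraries, and that with a PARP9 UMI 4.64 ± 0.39% in sevoflurane and 3.03 ± 0.56% in oxygen libraries. None of these overlapped, and each had an exact two-sided permutation p of 0.1, the smallest that 3 libraries against 3 allow. Unthinned, the IFIT1 share was 3.16% in sevoflurane and 1.38% in oxygen libraries. Glutamatergic neuron-like cells, where these genes were near their lowest, gave thinned IFIT1 shares of 0.16% or less and PARP9 shares of 0.12% or less in every library, at median depths of 5970 to 9538 UMIs beside 2301 to 3030 UMIs in astrocyte-like cells. Their thinned IFI6 shares were 0.35%, 0.26% and 0.56% in sevoflurane 1, 2 and 3 and 0.15%, 0.17% and 0.27% in oxygen 1, 2 and 3, which reaches the level of the oxygen astrocyte-like cells.

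Markers of other cells were also measured in the astrocyte-like class. The 13 endothelial markers summed to 67.5 to 87.3 CPM in sevoflurane and 49.3 to 68.1 CPM in oxygen libraries, with 2 to 3 markers and 0 to 3 markers at 0. The 2 red blood cell markers summed to 30.9 to 43.3 CPM in sevoflurane and 13.8 to 26.4 CPM in oxygen libraries, with none at 0. The 22 microglia markers summed to 92.6 to 139 CPM in sevoflurane and 96.5 to 136 CPM in oxygen libraries, with 5 to 7 and 1 to 4 at 0. The 6 choroid plexus markers summed to 152, 17.6 and 30.5 CPM in sevoflurane 1, 2 and 3, against 35.9, 39.4 and 25.5 CPM in oxygen 1, 2 and 3. Sevoflurane 1 was the highest library for these markers and for IFIT1, IFI6 and PARP9. Sevoflurane 2 was the lowest for these markers and the next highest for IFIT1 and PARP9. The 13 lymphocyte markers summed to 10.8 to 19.9 CPM in sevoflurane and 9.93 to 10.5 CPM in oxygen libraries, with 8 to 9 and 5 to 9 at 0. Of 16 marker lists, those of lymphocytes and red blood cells lay higher without overlap in sevoflurane libraries, and those of GABAergic neurons and macrophages lay lower. Their part in the member levels was not tested.

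**Figure D3:**
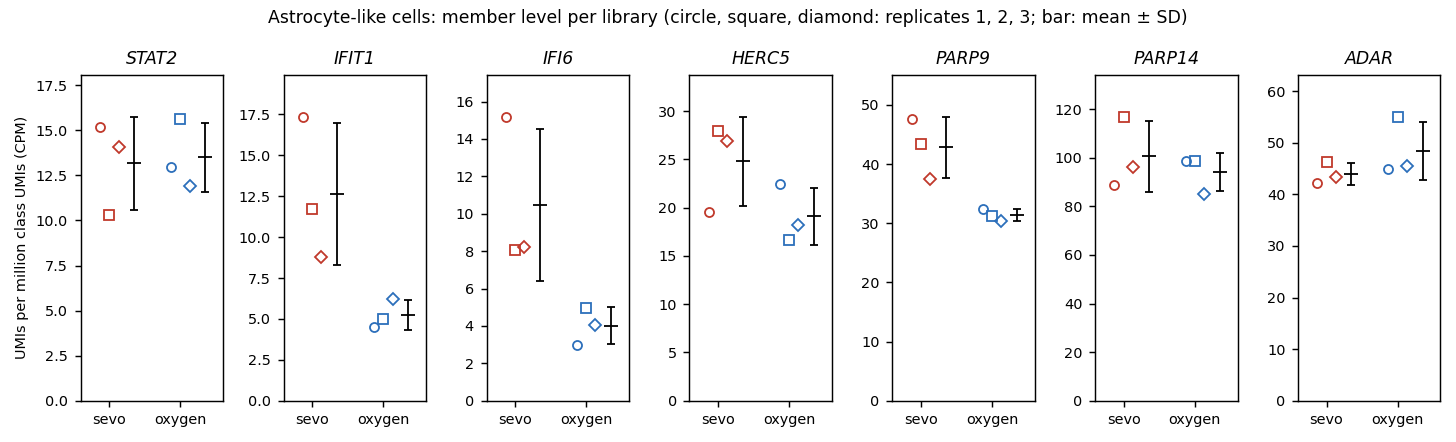
CPM of the 7 genes in astrocyte-like cells, 1 symbol per library (circle, square and diamond for replicates 1, 2 and 3) with mean ± SD, sevoflurane left of oxygen, each axis starting at 0. IFIT1, IFI6 and PARP9 do not overlap between groups, and HERC5, STAT2, PARP14 and ADAR do.

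In endothelial-like cells, where most members were highest, the spread between libraries was wide. PARP14 had 377, 762 and 270 CPM in sevoflurane 1, 2 and 3, against 403, 376 and 321 CPM in oxygen 1, 2 and 3. Sevoflurane 2 was the highest library and sevoflurane 3 the lowest, so the groups overlapped. The log2 fold change was 0.46 ± 0.42 (edgeR adjusted p = 0.999), and without sevoflurane 2 it was -0.18.

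PARP9 followed the same library, with 109, 210 and 99.6 CPM in sevoflurane 1, 2 and 3, against 90.5, 136 and 75.2 CPM in oxygen 1, 2 and 3. In sevoflurane 2, red blood cell markers summed to 3613 CPM and astrocyte markers to 1950 CPM in this class, beside 296 to 903 and 214 to 513 CPM in the other 5 libraries. Of 16 marker lists, only the endothelial one lay lower without overlap in sevoflurane libraries in this class, and only the oligodendrocyte one higher. The 13 endothelial markers summed to 5864.4 to 6482.3 CPM in sevoflurane and 7831.3 to 8976.5 CPM in oxygen libraries, with none at 0. The 11 oligodendrocyte markers summed to 526 to 747 CPM in sevoflurane and 431 to 511 CPM in oxygen libraries. The part of these markers in the member levels of this class was not tested.

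STAT2 lay higher without overlap in endothelial-like cells, at 21.3 ± 5.67 CPM in sevoflurane and 11.3 ± 3.86 CPM in oxygen libraries, but with 39 UMIs it was below the count filter. The thinned share of cells with a STAT2 UMI overlapped, at 2.38 ± 1.30% in sevoflurane and 1.92 ± 1.18% in oxygen libraries (exact permutation p = 0.6). None of the 4 members tested in this class lay higher without overlap by CPM, beside 3.52% of tested genes. IFIT1 had 48.3, 46.1 and 39.1 CPM in sevoflurane 1, 2 and 3, against 14.7, 34.8 and 45.1 CPM in oxygen 1, 2 and 3. Oxygen 1 was far below the rest and the groups overlapped, with a log2 fold change of 0.51 ± 0.42 (edgeR adjusted p = 0.999). PARP9 and ADAR had log2 fold changes of 0.55 ± 0.41 and 0.10 ± 0.34. IFI6 averaged 19.8 ± 9.84 CPM in sevoflurane and 22.4 ± 5.00 CPM in oxygen libraries, and HERC5 30.2 ± 11.8 CPM in sevoflurane and 16.7 ± 8.14 CPM in oxygen libraries (SD, n = 3 each). Both overlapped between groups and, with 51 and 48 UMIs, were not tested.

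No member lay higher without overlap in microglia-like cells, where 4.73% of genes did. PARP14 lay lower there in the sevoflurane libraries, with 258, 196 and 241 CPM in sevoflurane 1, 2 and 3, against 284, 265 and 303 CPM in oxygen 1, 2 and 3. The groups did not overlap, as for 7.59% of genes tested in this class in that direction. The log2 fold change was -0.24 ± 0.17 (edgeR adjusted p = 0.920). The share of thinned cells with a PARP14 UMI was 18.9 ± 2.50% in sevoflurane and 22.8 ± 0.45% in oxygen libraries (exact permutation p = 0.1, the smallest possible). In the same cells the 7 macrophage markers summed to 322 to 414 CPM in sevoflurane and 442 to 547 CPM in oxygen libraries, with 2 to 5 and 2 to 4 at 0. The 13 lymphocyte markers summed to 121 to 209 CPM in sevoflurane and 60.6 to 79.5 CPM in oxygen libraries, with 9 to 10 at 0 in both groups. Their part in the PARP14 level was not tested.

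PARP9 ran the other way in these cells, at 85.2 ± 23.7 CPM in sevoflurane and 61.6 ± 3.45 CPM in oxygen libraries, with overlap. Its log2 fold change was 0.49 ± 0.26 (edgeR adjusted p = 0.830). STAT2 averaged 22.2 ± 7.51 CPM in sevoflurane and 23.2 ± 9.86 CPM in oxygen libraries, and ADAR 37.8 ± 2.38 CPM in sevoflurane and 39.1 ± 2.37 CPM in oxygen libraries (SD, n = 3 each), both with overlap. IFIT1, IFI6 and HERC5 had 12, 15 and 38 UMIs in all microglia-like cells and were not tested.

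In OPC-like cells HERC5 had 28.6, 25.7 and 25.6 CPM in sevoflurane 1, 2 and 3, against 12.2, 20.3 and 20.6 CPM in oxygen 1, 2 and 3. The groups did not overlap, and oxygen 1 was the lowest library. The log2 fold change was 0.57 ± 0.28 (edgeR adjusted p = 0.850), and 6.84% of all tested genes lay higher without overlap. IFI6, below the count filter with 30 UMIs, also lay higher without overlap, at 7.33 ± 2.25 CPM in sevoflurane and 3.86 ± 0.74 CPM in oxygen libraries. The other members overlapped by CPM in OPC-like cells. STAT2 had a log2 fold change of -0.67 ± 0.52, PARP9 one of 0.11 ± 0.23, PARP14 one of -0.07 ± 0.14 and ADAR one of 0.09 ± 0.27. IFIT1, untested with 30 UMIs, ranged from 4.51 to 10.5 CPM in sevoflurane and from 3.05 to 5.37 CPM in oxygen libraries. By thinned share of cells, HERC5 (2.97 ± 0.85% in sevoflurane, 1.27 ± 0.85% in oxygen libraries) and ADAR (3.86 ± 1.17%, 2.31 ± 0.26%) lay higher without overlap. PARP14 lay lower without overlap (10.7 ± 0.76%, 12.5 ± 0.12%). Each had an exact permutation p of 0.1, the smallest possible. The shares of IFIT1, IFI6, STAT2 and PARP9 overlapped. Such shares were not taken for all genes.

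All 7 members overlapped by CPM between groups in oligodendrocyte-like cells. IFIT1 averaged 12.5 ± 2.34 CPM in sevoflurane and 8.96 ± 2.96 CPM in oxygen libraries, with a log2 fold change of 0.48 ± 0.31 (edgeR adjusted p = 0.801). The log2 fold changes of IFI6, HERC5, STAT2, PARP9, PARP14 and ADAR were 0.53 ± 0.46, 0.23 ± 0.29, 0.08 ± 0.27, 0.18 ± 0.39, -0.26 ± 0.16 and 0.01 ± 0.19. Background shares of genes without overlap by CPM were 7.91% higher and 5.98% lower. By thinned share of cells, STAT2 lay higher without overlap, at 1.18 ± 0.10% in sevoflurane and 0.86 ± 0.31% in oxygen libraries (exact permutation p = 0.1, the smallest possible). The shares of the other members overlapped.

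In GABAergic neuron-like cells IFI6 was low but separated, with 3.30, 3.85 and 3.84 CPM in sevoflurane 1, 2 and 3, against 2.82, 1.53 and 1.31 CPM in oxygen 1, 2 and 3. Its log2 fold change was 0.89 ± 0.39 (edgeR adjusted p = 0.430). It was 1 of 5 members tested there, beside 12.9% of genes higher without overlap. The thinned share of cells with an IFI6 UMI overlapped, at 0.48 ± 0.40% in sevoflurane and 0.20 ± 0.10% in oxygen libraries (exact permutation p = 0.4). Summed over libraries, cluster 3 of this class had 1.44 CPM in sevoflurane and 1.64 CPM in oxygen, on 5 and 8 UMIs. Cluster 4 had 2.26 and 1.72 CPM, on 8 and 6 UMIs, and clusters 15 and 16 held the rest of the 72 UMIs. Markers of other cells lay higher without overlap in the same class. The 6 choroid plexus markers summed to 134, 85.6 and 111 CPM in sevoflurane 1, 2 and 3, against 49.8, 50.8 and 49.0 CPM in oxygen 1, 2 and 3, with 1 marker at 0 in each sevoflurane library and none in the oxygen libraries. The 13 lymphocyte markers summed to 12.7 to 20.8 CPM in sevoflurane and 8.09 to 9.01 CPM in oxygen libraries, with 6 and 6 to 7 at 0. The 2 red blood cell markers summed to 10.8 to 12.5 CPM in sevoflurane and 6.33 to 9.75 CPM in oxygen libraries, with none at 0. Their part in the IFI6 level was not tested.

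The other members overlapped between groups in GABAergic neuron-like cells. HERC5 averaged 11.9 ± 2.09 CPM in sevoflurane and 8.49 ± 1.59 CPM in oxygen libraries (SD, n = 3 each), a log2 fold change of 0.43 ± 0.24. Those of STAT2, PARP14 and ADAR were 0.32 ± 0.26, -0.22 ± 0.20 and -0.03 ± 0.15. IFIT1 and PARP9, with 31 and 26 UMIs, were not tested.

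In glutamatergic cluster 10 STAT2 had 16.3, 15.5 and 23.0 CPM in sevoflurane 1, 2 and 3, against 12.3, 8.04 and 11.1 CPM in oxygen 1, 2 and 3. Sevoflurane 3 was the highest library and the groups did not overlap, as for 14.5% of genes in that direction. The log2 fold change was 0.74 ± 0.29 (edgeR adjusted p = 0.307), and 0.49 without sevoflurane 3 (adjusted p = 0.550). The thinned share of cells with a STAT2 UMI overlapped, at 1.87 ± 1.13% in sevoflurane and 1.29 ± 0.28% in oxygen libraries (exact permutation p = 0.5). The other members overlapped in cluster 10. PARP14 and ADAR had log2 fold changes of -0.14 ± 0.24 and -0.35 ± 0.23. IFI6, untested with 25 UMIs, averaged 3.03 ± 2.06 CPM in sevoflurane and 0.75 ± 0.22 CPM in oxygen libraries. IFIT1, HERC5 and PARP9, with 7, 28 and 13 UMIs, were not tested either.

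Over 5 libraries, IFI6 in cluster 8 had 3.79 and 3.39 CPM in sevoflurane 1 and 2, against 1.79, 2.46 and 1.59 CPM in oxygen 1, 2 and 3. Its log2 fold change was 0.88 ± 0.34 (edgeR adjusted p = 0.314). IFIT1 and PARP14 also lay higher without overlap in cluster 8, as did 23.6% of its genes. PARP14 lay higher in clusters 7 and 19 too, where 20.2% and 18.3% of genes did, and IFI6, untested at 36 UMIs, in cluster 19. ADAR lay lower in cluster 7, at 31.2 ± 2.45 CPM in sevoflurane (n = 2) and 37.2 ± 3.36 CPM in oxygen libraries (n = 3), as did 10.7% of genes. The other tested members overlapped in these clusters. In cluster 7 the log2 fold changes of IFI6, HERC5 and STAT2 were 0.17 ± 0.40, -0.24 ± 0.38 and -0.31 ± 0.21. In cluster 8 those of HERC5, STAT2, PARP9 and ADAR were -0.38 ± 0.38, -0.25 ± 0.22, 0.84 ± 0.66 and -0.07 ± 0.13. In cluster 19 those of HERC5, STAT2 and ADAR were -0.32 ± 0.36, -0.17 ± 0.22 and -0.08 ± 0.19. IFIT1 and PARP9 were below the count filter in clusters 7 and 19, with 14 to 25 UMIs, and overlapped.

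**Figure D4:**
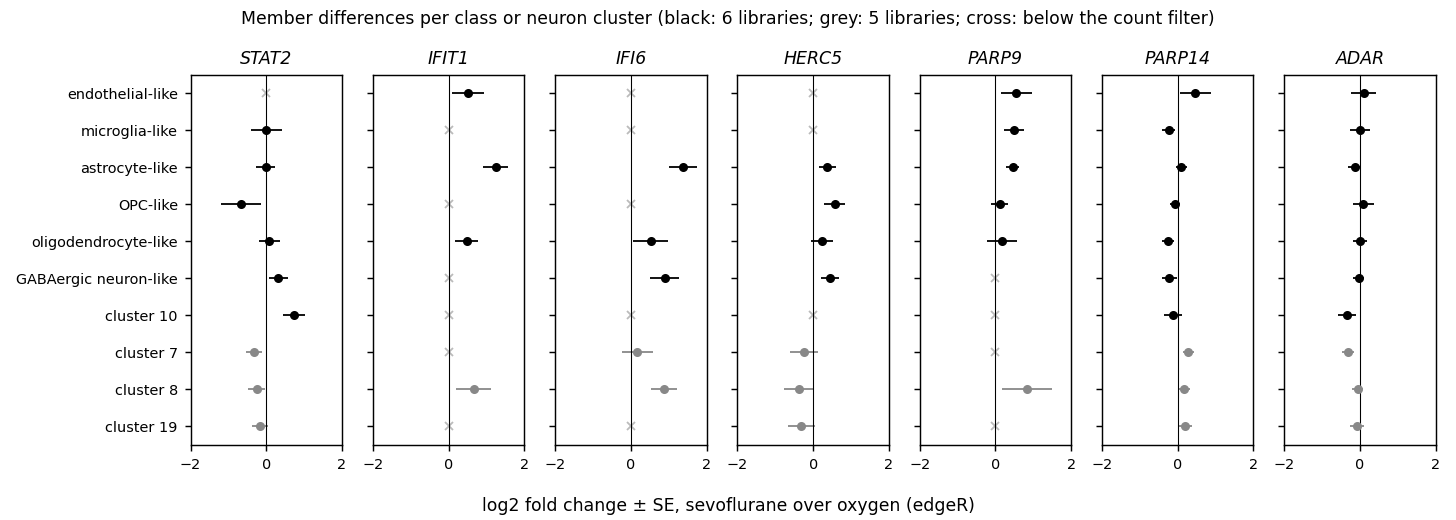
Log2 fold change of sevoflurane over oxygen ± SE for each gene in 10 cell types, in black over 6 libraries and in grey over 5, with a cross where counts were below the filter. IFIT1 and IFI6 in astrocyte-like cells have the largest values shown, 1.25 and 1.37, and ADAR lies between -0.35 and 0.10.

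Whether the response of astrocyte-like cells differed from that of other cell types was tested within libraries with limma. A gene needed enough counts in both classes. IFIT1 was therefore compared only with endothelial-like and oligodendrocyte-like cells, and IFI6 only with GABAergic neuron-like and oligodendrocyte-like cells. None of 28 combinations of member and other class passed (adjusted p between 0.558 and 0.996), and 2 had an unadjusted p under 0.05. These were IFIT1 against oligodendrocyte-like cells, where the astrocyte-like log2 fold change was larger by 0.64 ± 0.23 (adjusted p = 0.618), and STAT2 against cluster 10, with a difference of -0.69 ± 0.27 (adjusted p = 0.558). For IFI6, astrocyte-like and GABAergic neuron-like cells differed by 0.36 ± 0.43 (adjusted p = 0.906). PARP14 in microglia-like cells was set against the neuronal clusters after its values were seen, and the limma differences of -0.59 ± 0.34 (cluster 7), -0.47 ± 0.36 (cluster 8), -0.55 ± 0.38 (cluster 19) and -0.17 ± 0.36 (cluster 10) did not pass, with adjusted p of 0.697 or more.

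The rest of the pathway was followed in fixed lists, and no gene of any list passed in any cell type by edgeR. No interferon ligand had enough counts to be tested in endothelial-like, microglia-like, OPC-like or oligodendrocyte-like cells. The ligand IFNB1, interferon beta, had enough counts in 6 cell types, which were astrocyte-like cells, GABAergic neuron-like cells and clusters 10, 7, 8 and 19. It lay higher without overlap in sevoflurane libraries in each of them. The same held for 14.5% of all tested genes in cluster 10, 23.6% in cluster 8, 20.2% in cluster 7, 18.3% in cluster 19, 12.9% in GABAergic neuron-like cells and 6.15% in astrocyte-like cells. In cluster 10 it averaged 51.3 ± 23.3 CPM in sevoflurane and 11.9 ± 7.52 CPM in oxygen libraries, a log2 fold change of 1.96 ± 0.46 (edgeR adjusted p = 0.0937). In cluster 8 its log2 fold change was 1.57 ± 0.34 (adjusted p = 0.0900), in GABAergic neuron-like cells 1.28 ± 0.29 (adjusted p = 0.147), in cluster 7 1.39 ± 0.33 (adjusted p = 0.174), in cluster 19 0.79 ± 0.30 (adjusted p = 0.347) and in astrocyte-like cells 1.38 ± 0.36 (adjusted p = 0.473). These cell types come from the same libraries. IFNG, interferon gamma, had 0 UMIs in all 10 cell types compared.

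Of the signalling and feedback list in astrocyte-like cells, 6 of 8 tested genes had a fold change above 0, with a median of 0.01. IRF9, which binds STAT2, had a log2 fold change of 0.25 ± 0.37 and overlapped between groups (edgeR adjusted p = 0.960). Among the receptors IFNGR1 had a log2 fold change of 0.60 ± 0.29 and IFNGR2 one of -0.25 ± 0.22. The nucleic acid sensors had a median of 0.28 over 7 tested genes, and RIGI, which detects viral RNA, ranged over 114 to 141 CPM in sevoflurane and 66.7 to 124 CPM in oxygen libraries.

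Of the other interferon-stimulated effectors, 17 were tested in astrocyte-like cells and 16 had a fold change above 0, with a median of 0.22, beside 49.6% of all genes above 0. In this class 3 of the 17 lay higher without overlap, beside 6.15% of all tested genes. By the same count, clusters 8 and 19 had 9 of 25 and 4 of 15, beside 23.6% and 18.3% of genes. Endothelial-like and microglia-like cells had 0 of 22 and 0 of 12, beside 3.52% and 4.73%. The 3 in astrocyte-like cells included DDX60, a helicase induced by interferon, and the ubiquitin ligase TRIM25. DDX60 had 18.5 ± 2.90 CPM in sevoflurane and 7.60 ± 1.44 CPM in oxygen libraries (log2 1.25 ± 0.26, edgeR adjusted p = 0.358). TRIM25 had a log2 fold change of 0.77 ± 0.26 (edgeR adjusted p = 0.593). The same list had 9 of 18 above 0 in oligodendrocyte-like, 8 of 12 in microglia-like, 15 of 22 in endothelial-like and 9 of 13 in OPC-like cells, beside 51.5%, 53.8%, 53.6% and 50.8% of all genes. It had 9 of 18 above 0 in GABAergic neuron-like cells and 3 of 6, 8 of 20, 13 of 25 and 6 of 15 in clusters 10, 7, 8 and 19. The median log2 fold change of all tested genes there was 0.0040, 0.011, 0.013, 0.015 and 0.0063. In oligodendrocyte-like cells IFIT2, a relative of IFIT1, had 15.5 ± 2.73 CPM in sevoflurane and 8.29 ± 2.40 CPM in oxygen libraries (log2 0.91 ± 0.30, adjusted p = 0.561). Of the PARP and ADAR relatives, ADARB2, a brain relative of ADAR, lay lower without overlap in OPC-like cells, at 31.6 ± 10.7 CPM in sevoflurane and 55.1 ± 3.10 CPM in oxygen libraries (log2 -0.78 ± 0.24, adjusted p = 0.528), as did 5.05% of genes in that class. ADARB2 was also among the leading genes of a GABAergic neuron-like cluster. The 12 GABAergic neuron markers lay lower without overlap in OPC-like cells too, at 773 to 910 CPM in sevoflurane and 937 to 1020 CPM in oxygen libraries, with 3 to 4 and 1 to 3 at 0. Their part in the ADARB2 level was not tested.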

How the data were processed

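The deposited matrices hold UMI counts of each gene in each barcode, not normalized, made by the authors with Cell Ranger 6.1.1 per the file headers; CASAVA 1.8, Cell Ranger and Seurat are named in the submitters' processing notes. The sources used here do not give the genome build or annotation. Of 29320 genes, 15188 carry a symbol in the files, and 1397 more were named from a gene name table. Barcodes with at least 500 UMIs and 200 genes were kept, 2238 likely doublets (score above 0.1899) were removed, and the rest were clustered with scanpy 1.11.5 (2000 variable genes, 30 components, 15 neighbours, Leiden resolution 1). Classes were named from marker lists. Counts were summed per class and library, filtered with filterByExpr, scaled by TMM and tested with edgeR 4.0.16 (Benjamini-Hochberg over all genes, threshold 0.05). Responses of different classes were compared with limma 3.58.1. DESeq2 1.42.0 was an alternative. Only the edgeR test was tried on simulated data, made from astrocyte-like sums with changes set in the more highly expressed genes. Shares of cells were taken after thinning to 1000 UMIs, leaving out shallower cells, with 95% Clopper-Pearson intervals. The 7 measured members are reported in every compared class, by value, count or overlap; pathway genes are named by smallest p, up to 2 per list and class. The members and lists were chosen with earlier results of these data known. Clusters 7, 8 and 19 were compared over 5 libraries after their cell numbers were seen. One gene of the pathway lists is not reported here by name.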

Additional observations from a re-analysis of the deposited data

Results flagged for a closer look

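Classes too small to compare were searched only for sevoflurane libraries above the oxygen ones, so lower levels could not be flagged. A flag needed at least 5 UMIs and more than 2 times the highest oxygen library. Some members met this. In choroid plexus-like cells, 503 of 521 came from sevoflurane 1, where IFI6 had 15.3 CPM (25 UMIs), HERC5 9.78 CPM (16 UMIs) and PARP9 47.0 CPM (77 UMIs). The only oxygen library with such cells, oxygen 2, held 16 of them and had 0, 0 and 14.1 CPM, the last from 1 UMI. At 14.1 CPM per UMI, 0 UMIs there cannot show a lower level of IFI6 or HERC5. STAT2 and PARP14 were also higher in sevoflurane 1, at 16.5 and 143 CPM, against 14.1 and 84.5 CPM in oxygen 2. IFIT1 and ADAR were lower, at 19.6 and 60.5 CPM in sevoflurane 1, against 28.2 and 70.4 CPM in oxygen 2, which rest on 2 and 5 UMIs there. In fibroblast-like cells of sevoflurane 2, IFIT1 had 236 CPM, from 8 UMIs in 13 cells with up to 6 UMIs in a cell, against 16.1 CPM in the highest oxygen library. The difference between groups was not tested in these classes.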

How the results depend on the processing

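No member passed an adjusted p of 0.05 under any of the 13 alternatives. Of 629 alternative edgeR or DESeq2 adjusted p-values for members the lowest was 0.124, for IFIT1 and IFI6 in astrocyte-like cells without the low-count filter; over all alternatives theirs ran to 0.999. The number of members that passed stayed at 0 and that of genes with a different response at 0. Directions turned only for values near 0 or when 1 library was left out, and the cause was not tested. ADAR was 0.032 in GABAergic neuron-like cells and 0.024 in cluster 8 with library totals only, 0.0021 in microglia-like cells with a replicate block and 0.078 with doublets kept, and -0.0054 without filter and -0.0095 with the block in oligodendrocyte-like cells. STAT2 was 0.014 in astrocyte-like cells with doublets kept, and in microglia-like cells -0.023 (DESeq2), -0.015 (RLE scaling), -0.042 (library totals only), -0.037 (no filter), -0.029 (replicate block) and -0.018 (Leiden resolution 0.5). The PARP9 response of astrocyte-like against endothelial-like cells was 0.017 with library totals only. Leaving out 1 library gave log2 fold changes of ADAR in GABAergic neuron-like cells -0.11 to 0.10, ADAR in OPC-like cells -0.15 to 0.36, ADAR in cluster 19 -0.24 to 0.061, ADAR in endothelial-like cells -0.15 to 0.31, ADAR in microglia-like cells -0.062 to 0.015, ADAR in oligodendrocyte-like cells -0.10 to 0.14, HERC5 in cluster 7 -0.46 to 0.068, PARP14 in OPC-like cells -0.16 to 8.3e-05, PARP14 in astrocyte-like cells -0.0016 to 0.17, PARP14 in endothelial-like cells -0.18 to 0.77, PARP9 in oligodendrocyte-like cells -0.20 to 0.42, STAT2 in GABAergic neuron-like cells -0.0019 to 0.45, STAT2 in astrocyte-like cells -0.13 to 0.14, STAT2 in microglia-like cells -0.36 to 0.26, STAT2 in oligodendrocyte-like cells -0.11 to 0.23. It gave response differences of astrocyte-like cells of ADAR against GABAergic neuron-like cells -0.26 to 0.0019, ADAR against OPC-like cells -0.45 to 0.028, ADAR against endothelial-like cells -0.43 to 0.013, ADAR against oligodendrocyte-like cells -0.28 to 0.0081, HERC5 against GABAergic neuron-like cells -0.26 to 0.20, HERC5 against OPC-like cells -0.39 to 0.16, HERC5 against oligodendrocyte-like cells -0.12 to 0.27, IFI6 against GABAergic neuron-like cells -0.068 to 0.58, PARP14 against endothelial-like cells -0.53 to 0.19, PARP9 against endothelial-like cells -0.30 to 0.35, PARP9 against microglia-like cells -0.28 to 0.21, STAT2 against microglia-like cells -0.31 to 0.37, STAT2 against oligodendrocyte-like cells -0.33 to 0.15.

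The count of all genes that passed depended on the setting. DESeq2 passed 203 genes in GABAergic neuron-like, 16 in OPC-like, 37 in astrocyte-like, 1 in endothelial-like, 19 in microglia-like and 43 in oligodendrocyte-like cells, and 248, 206, 423 and 151 in clusters 10, 7, 8 and 19. Without the low-count filter the counts were 245, 105, 163, 235, 116, 55, 736, 433, 627 and 669 in the same order. GABAergic neuron-like cells had 0 with library totals only or doublets kept and 1 at Leiden resolution 0.5, and cluster 7 had 0 with doublets kept or at that resolution. Leaving out 1 library gave 0 to 37 (GABAergic neuron-like), 0 to 10 (OPC-like), 0 to 4 (astrocyte-like), 0 to 184 (cluster 10), 1 to 94 (cluster 19), 0 to 132 (cluster 7), 7 to 253 (cluster 8), 0 to 0 (endothelial-like), 1 to 11 (microglia-like), 0 to 3 (oligodendrocyte-like). Endothelial-like cells had no value at resolution 0.5, where they merged with another class and stayed unnamed.

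Deviations from the group mean had correlations between -0.31 and 0.13 for same-numbered libraries over the 10 cell types. Differently numbered libraries gave -0.20 to 0.29. Centring within groups of 3 or 2 libraries ties these values together, so they cannot decide whether the numbers pair the samples. A fit with a replicate block passed 0 genes in GABAergic neuron-like, OPC-like, astrocyte-like and oligodendrocyte-like cells and in clusters 10, 7 and 19, 1 in microglia-like cells and 117 in cluster 8, and no member. Depth limits the low members most: 19 of 70 combinations of member and cell type fell below the filter.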
